A study of Homo sapiens with 30 samples.

Results

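Transcripts of 41 genes of S phase and DNA replication were followed through activation in Jurkat E6-1, an established leukaemic T cell line of human origin that divides continuously in culture. The 41 genes were chosen by symbol from a list of known replication genes, and all were found among the 54300 gene symbols measured. They were chosen with earlier results of these data known, so counts of called genes beside the shares of all tested genes only describe the set. The KO cells lack isoform 1 of SLAMF6, one of the SLAM receptors that lymphocytes carry, and are also called SLAMF6∆17-65 in the labels. The other cells are labelled WT. Both were activated with PMA, a phorbol ester that switches on protein kinase C, plus ionomycin, which lets calcium in, so that the T cell receptor is bypassed, and were compared at 0, 6, 12, 24 and 36 h. There were 10 groups by genotype and time, with 3 bulk RNA libraries in each. The labels give the time points without a unit. Hours were taken because the treatment protocol, which was written for a cytokine assay, counts in hours. The labels state no number of clones for the KO line and do not say whether replicate libraries are separate cultures, so each p-value reflects library spread alone, which may be technical. The design text, which was followed, names isoform 1 as knocked out, while the series' title is about overexpression of isoform 3.

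Replication starts when the origin recognition complex, CDC6 and CDT1 load the MCM helicase onto DNA in G1. In S phase CDC45 and the GINS complex switch the helicase on, and DNA polymerases copy the strands behind it with primase, the sliding clamp PCNA and its loader RFC. Ribonucleotide reductase and thymidylate synthase make the deoxynucleotides. Most of these genes are transcribed at the passage from G1 to S by E2F factors, which the RB protein holds in check in cells that are not cycling. Resting T cells switch this programme on when they are stimulated, whereas Jurkat cells cycle without stimulation and have it on at 0 h.

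Library totals ran from 5.64 to 28.2 M counts with a median of 20.5 M, and 3 libraries were shallow: replicate 2 of KO 0 h at 5.64 M, replicate 2 of WT 0 h at 7.59 M and replicate 2 of WT 36 h at 8.54 M. KO 6 h replicate 2, KO 12 h replicate 1, KO 24 h replicate 3 and WT 24 h replicate 3 stood apart by the chi-square per degree of freedom between the counts of replicate libraries, a measure that grows with depth. It was 24.0 to 38.1 in the pairs that hold one of these 4 libraries and 4.15 to 14.95 in all other pairs. By the root mean square log2 deviation from the group mean, the 3 shallow libraries deviated more, at 0.481 to 0.562, than these 4, at 0.435 to 0.477. SLAMF6 itself was at 19.3 ± 1.47 CPM in KO libraries and 21.2 ± 3.4 CPM in WT libraries at 0 h, and at 139 ± 12.8 CPM in KO libraries and 105 ± 5.9 CPM in WT libraries at 36 h. Counts per gene sum over isoforms, so these levels do not check the loss of isoform 1. The 12 T cell markers together made up 4460 to 7230 CPM in every library, against 1.06 to 6.49 CPM for 8 monocyte markers, 21.1 to 50.9 CPM for 8 B cell markers, 0.301 to 6.59 CPM for 8 markers of adherent lines and 0.176 to 5.37 CPM for 8 erythroid markers, with HBA1 at 0. The titles carry the letter B for KO and A for WT from 0 to 24 h and C for both at 36 h, so this letter cannot be told apart from genotype up to 24 h or from the step between 24 and 36 h.

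The replication programme fell in both genotypes as activation went on. Levels are counts per M scaled by the TMM method (CPM), folds are on the log2 scale, and a gene was called changed at an adjusted p under 0.05 (edgeR's quasi-likelihood test, Benjamini-Hochberg) over all 21554 genes tested. All 41 genes passed the filter on low counts. Called lower against 0 h in KO were 35, 40, 41 and 41 of the 41 genes at 6, 12, 24 and 36 h, where 13.2%, 13.7%, 16.7% and 18% of all tested genes were called lower. In WT 39, 39, 40 and 40 were called lower, against 10.5%, 15.6%, 17% and 19% of all tested genes. None of the 41 was called higher at any of these times in edgeR's test, at an unadjusted p under 0.05 or with DESeq2, while 14%, 14.1%, 16.1% and 18.6% of all tested genes were higher in KO and 11.8%, 14.8%, 17.3% and 20.1% in WT. The median log2 changes of the 41 genes were -0.68, -1.24, -2.03 and -1.50 in KO and -0.69, -1.20, -1.82 and -1.77 in WT. The median over all tested genes lay between 0.01 and 0.05 in 7 of these 8 comparisons and at 0.12 at 12 h in WT (0.15 with DESeq2's size factors).

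**Figure D1:**
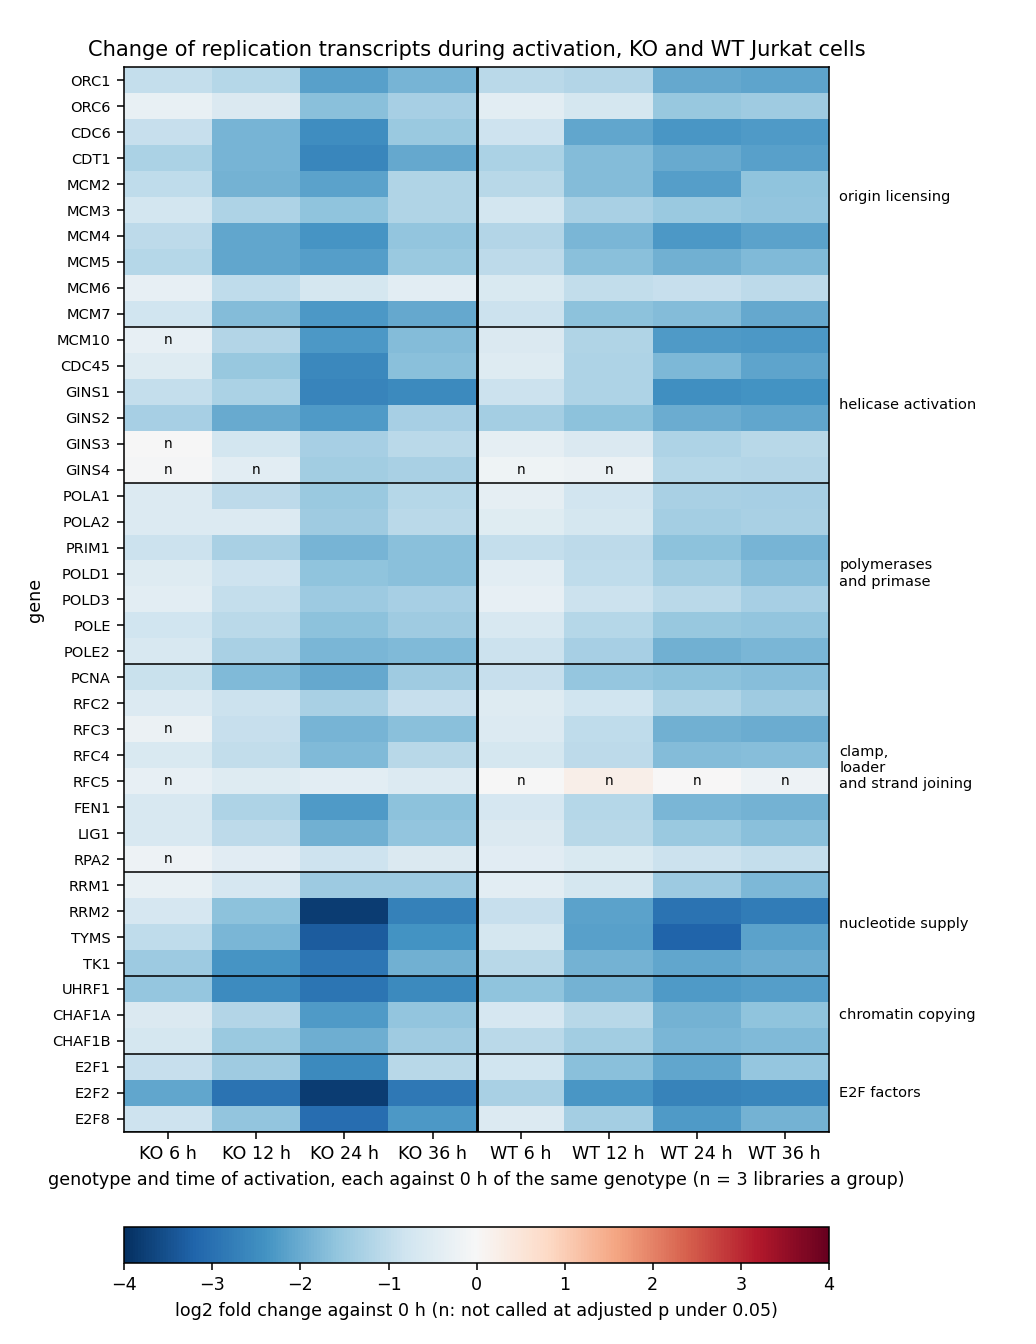
Log2 fold change against 0 h of the same genotype for each of the 41 genes (rows, grouped by role) at 6, 12, 24 and 36 h in KO (left) and WT (right), from the fit of all 30 libraries. The letter n marks a change that was not called, and RFC5 in WT is the single row without a called fall.

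Seen as a sum, the 41 transcripts made up 8685 ± 334 CPM in KO and 9394 ± 339 CPM in WT at 0 h (SD, n = 3 each, as throughout). At 24 h they made up 2156 ± 251 CPM in KO and 2791 ± 162 CPM in WT, and at 36 h 2947 ± 137 CPM in KO and 2726 ± 241 CPM in WT. The sum therefore kept 24.8% of its 0 h level in KO and 29.7% in WT at 24 h, and 33.9% in KO and 29% in WT at 36 h. KO libraries lay below WT libraries without overlap at 24 h, as they already did at 0 h and at 12 h. The 2 genotypes overlapped at 6 and 36 h. At 0 h the sums ran from 8323 to 8981 CPM in KO and from 9157 to 9782 CPM in WT. In bulk RNA, fewer cells in S phase and less transcript per cell cannot be told apart. The lowest mean of the course was at 24 h for 37 of the 41 genes in KO and for 19 in WT, where the other 22 were lowest at 36 h. Across the 41 genes the 24 h change in KO followed that in WT (Pearson r = 0.924, Spearman rho = 0.92), a description of genes measured in the same libraries within each genotype.

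**Figure D2:**
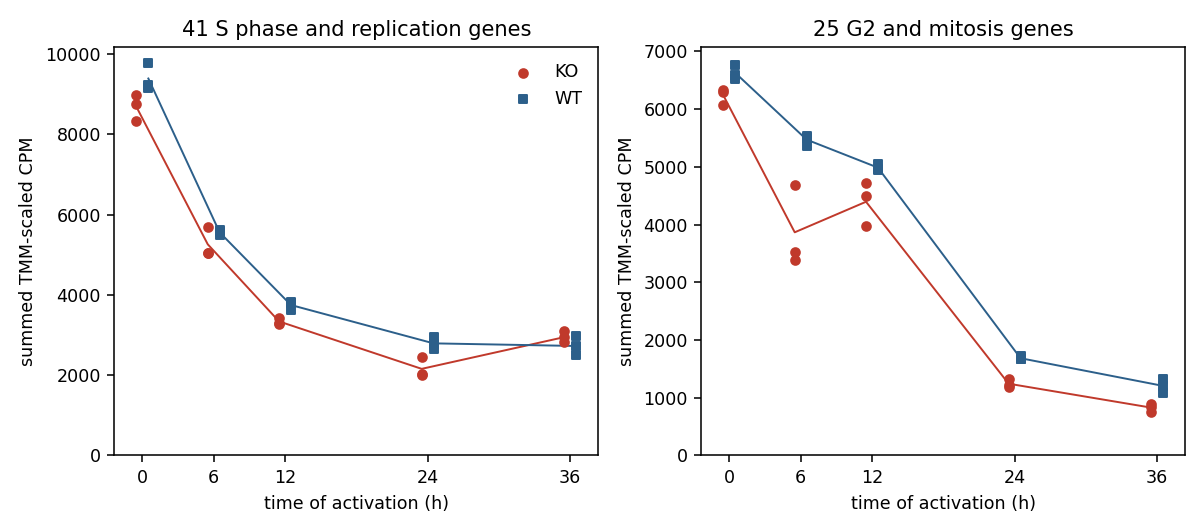
Summed TMM-scaled CPM of the 41 replication genes (left) and of 25 genes of G2 and mitosis (right) by time of activation, with a point for each library and a line through the group means, KO in red and WT in blue. The replication sum in KO was 2156 CPM at 24 h and 2947 CPM at 36 h, while the sum of the mitosis genes was lower at 36 h than at 24 h in both genotypes.

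Among the 10 licensing genes every one was called lower at each later time in both genotypes, with a median log2 change at 24 h of -2.18 in KO and -1.97 in WT. MCM7, a subunit of the replicative helicase, was at 1033, 828 and 1022 CPM in the KO libraries and 1042, 889 and 1101 CPM in the WT libraries at 0 h. At 24 h it was at 182, 175 and 224 CPM in KO and 284, 321 and 314 CPM in WT, and all 3 KO libraries were the lower ones. Its log2 change at 24 h was -2.31 (SE 0.11, adjusted p = 8.24e-18) in KO and -1.72 (SE 0.11, adjusted p = 1.45e-14) in WT. At 36 h the genotypes overlapped, at 233, 233 and 228 CPM in KO and 266, 204 and 258 CPM in WT. Exons of AP4M1 on the opposite strand overlap 8.94% of the exon length of MCM7, and no source used here says whether counting used strand.

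MCM5 and MCM4 are further helicase subunits. MCM5 was at 107, 118 and 115 CPM in KO and 165, 141 and 171 CPM in WT at 12 h, a KO against WT difference of -0.49 (SE 0.10, adjusted p = 0.000622) without overlap. MCM4 was at 111, 98.1 and 91.8 CPM in KO and 137, 126 and 139 CPM in WT at that time, again without overlap. At 36 h the order was the other way round for MCM4, with 139, 142 and 144 CPM in KO and 124, 98.2 and 102 CPM in WT, and its difference of 0.39 (SE 0.11, adjusted p = 0.0189) was not called without WT replicate 2, WT replicate 3 or KO replicate 3 (adjusted p up to 0.0951). MCM2 showed the same order at 36 h, with 188, 163 and 163 CPM in KO and 141, 126 and 127 CPM in WT and a difference of 0.38 (SE 0.12, adjusted p = 0.0279), a call lost in 3 of 6 fits with 1 library left out, adjusted p up to 0.146. MCM2 is overlapped on the opposite strand by AC023593.1 over 22.7% of its exon length. MCM6 fell least of the group, with log2 changes of -0.71 in KO and -0.92 in WT at 24 h.

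CDC6, the loader that brings the MCM helicase to origins, was lower in KO than in WT in every library at 0, 6 and 24 h. At 6 h it was at 51.4, 72.6 and 54.4 CPM in KO and 80.2, 93 and 87.8 CPM in WT, a difference of -0.55 (SE 0.14, adjusted p = 0.0115), a call lost in 3 of 6 fits with 1 library left out, adjusted p up to 0.101. At 24 h it was at 17.6, 18.9 and 24.3 CPM in KO and 29.6, 27.4 and 36 CPM in WT, a difference of -0.61 (SE 0.15, adjusted p = 0.00798), a call lost in 2 of 6 fits with 1 library left out, adjusted p up to 0.0658. The KO libraries were at 39.8, 36.2 and 44.9 CPM at 36 h, beside 40, 26.2 and 30.4 CPM in WT, where the groups overlapped. ORC1 and ORC6 of the origin recognition complex had log2 changes of -2.16 and -1.69 in KO and -2.06 and -1.52 in WT at 24 h. CDT1, the partner of CDC6 in loading, had log2 changes of -2.61 in KO and -2.03 in WT.

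Of the 6 helicase activators 2 were called lower in KO than in WT at 24 h. CDC45, which joins the MCM ring to form the active helicase, was at 149.7, 139 and 144 CPM in KO and 168, 150.2 and 166 CPM in WT at 0 h, with no overlap and a difference of -0.16 (SE 0.11, adjusted p = 0.421) that was not called. At 24 h it was at 20.4, 22.8 and 28.9 CPM in KO and 47, 43.3 and 47.8 CPM in WT. Every KO library lay below every WT library there, and the difference was -0.94 (SE 0.11, adjusted p = 4.68e-07). At 36 h CDC45 was at 43.1, 40.3 and 51.3 CPM in KO and 41.6, 32.8 and 37.6 CPM in WT, where 1 WT library lay inside the KO range. The KO change at 24 h minus the WT change was -0.77 (SE 0.16, adjusted p = 0.00281), a call that held under every alternative run.

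GINS2, a subunit of the GINS complex, was at 108, 97.9 and 116 CPM in KO and 151, 126 and 144 CPM in WT at 0 h. At 12 h it was at 25.4, 21.9 and 32 CPM in KO and 48, 45.5 and 41.6 CPM in WT, and at 24 h at 17.9, 24.8 and 24.1 CPM in KO and 31.1, 29.6 and 45.7 CPM in WT. KO lay below WT at both times without overlap, with differences of -0.77 (SE 0.15, adjusted p = 0.000714) and -0.68 (SE 0.16, adjusted p = 0.00356), the second lost in 1 of 6 fits with 1 library left out, adjusted p up to 0.0751. At 36 h the KO libraries held 43.9, 38.6 and 46.3 CPM and the WT libraries 38.9, 28.5 and 32.5 CPM, so that KO was the higher genotype on average with the highest WT library inside the KO range. GINS1 was at 17.3 ± 1.71 CPM in KO libraries and 21.5 ± 2.53 CPM in WT libraries at 36 h, against 102 ± 7.25 CPM and 114 ± 7.38 CPM in these genotypes at 0 h. GINS3, GINS4 and MCM10, which helps the helicase start, were not called at 6 h in KO. GINS4 was called at neither 6 nor 12 h in either genotype, and an antisense transcript overlaps 21.2% of its exon length.

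All 7 polymerase and primase genes were called lower at each later time in both genotypes, with medians at 24 h of -1.62 in KO and -1.38 in WT. POLD1, the catalytic subunit of the lagging strand polymerase delta, was at 251, 288 and 231 CPM in KO and 206, 259.9 and 254 CPM in WT at 0 h, overlapping. At 24 h it was at 82, 79.1 and 88.7 CPM in KO and 101, 93.2 and 81.9 CPM in WT, still overlapping, and the difference of -0.14 (SE 0.11, adjusted p = 0.48) was not called. POLE, the catalytic subunit of the leading strand polymerase, kept 31.9% and PRIM1, the primase, 27.8% of the 0 h level at 24 h in KO. POLA1 and POLA2, the subunits that begin each strand with primase, had log2 changes of -1.49 and -1.43 in KO and -1.31 and -1.36 in WT at 24 h. One of the 7, POLD3, was called lower in KO than in WT at 24 h, with -0.40 (SE 0.12, adjusted p = 0.0313), a call lost in 2 of 6 fits with 1 library left out, adjusted p up to 0.228.

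Of the 8 genes for the clamp, its loader, strand joining and single-strand binding, 7 were called lower in WT at each later time and all 8 in KO from 12 h on. PCNA, the sliding clamp, averaged 77 ± 14.1 CPM in KO libraries and 102 ± 27.7 CPM in WT libraries at 24 h, against 316 ± 21.3 CPM and 318 ± 14.8 CPM at 0 h. FEN1, which trims Okazaki fragments, and LIG1, which joins them, were lower in KO than in WT at 24 h, with differences of -0.68 (SE 0.12, adjusted p = 0.000135) and -0.49 (SE 0.10, adjusted p = 0.000816). RPA2, a subunit of the single-strand binding protein, had the smallest fall of these 8 genes after RFC5 at 24 h, at 106, 130.0 and 138 CPM in KO and 141, 136 and 171 CPM in WT at 24 h, where the genotypes overlapped, against 230.5, 204 and 223 CPM and 265, 269 and 279 CPM at 0 h, where they did not.

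RFC5, a small subunit of the clamp loader, was the exception. In WT it was at 159, 146 and 148 CPM at 0 h and 187, 181 and 165 CPM at 12 h, and no WT comparison with 0 h was called, with a log2 change at 12 h of 0.23 (SE 0.14, adjusted p = 0.208). In KO it was at 136, 139 and 138 CPM at 0 h and 126, 81.6 and 82.2 CPM at 12 h, and it was called lower at 12, 24 and 36 h. KO lay below WT without overlap at every time from 0 to 36 h. The difference was called at 6, 12, 24 and 36 h, with values of -0.46, -0.88, -0.57 and -0.48 (adjusted p = 0.0288, 3.65e-05, 0.00621 and 0.0181). The call at 12 h held under every alternative run, and those at 6, 24 and 36 h were lost in 4, 1 and 3 of 6 fits with 1 library left out. KO 12 h replicate 1, at 126 CPM, stood well above the other two KO libraries of that time. The exons of WSB2 on the opposite strand overlap 5.72% of RFC5's exon length and those of an antisense transcript 4.92%. The other loader subunits fell together: RFC2, RFC3 and RFC4 kept 41%, 27.3% and 29.5% of the 0 h level at 24 h in KO and 43.8%, 26.6% and 30% in WT.

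The genes of nucleotide supply fell far. TYMS and RRM2 had the largest log2 changes of the 41 in WT at 24 h, at -3.20 and -2.95, and E2F2 and RRM2 in KO, at -3.80 and -3.79. RRM2, the small subunit of ribonucleotide reductase that is made in S phase, was at 839, 819 and 856 CPM in KO and 896, 920.3 and 888 CPM in WT at 0 h. At 24 h it was at 59.6, 56.4 and 65.3 CPM in KO and 112, 118 and 120.0 CPM in WT, which is 7.21% of the 0 h level in KO and 12.9% in WT. Between these times the order of the genotypes changed. At 12 h the KO libraries, at 227, 285 and 292 CPM, all lay above the WT libraries, at 203, 194 and 210.5 CPM, a log2 difference of 0.40 (SE 0.11, adjusted p = 0.0102), a call lost in 2 of 6 fits with 1 library left out, adjusted p up to 0.0582. By 24 h every KO library lay below, with -0.95 (SE 0.11, adjusted p = 1.52e-07). At 36 h RRM2 was at 135, 129 and 124 CPM in KO and 145, 112 and 129.6 CPM in WT, overlapping, with a difference of 0.01 (SE 0.11, adjusted p = 0.984). The same-strand gene AC007240.1 shares 20.2% of the exon length of RRM2.

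RRM1, the large subunit, fell less and was the single gene of the 41 called lower in KO at 0 h, at 419, 436 and 428 CPM in KO and 539, 531 and 525 CPM in WT, where 3.11% of all tested genes were called lower. The libraries did not overlap and the difference was -0.31 (SE 0.10, adjusted p = 0.0431), but the call was lost when any 1 of the 6 libraries was left out (adjusted p from 0.0681 to 0.111). TK1, which salvages thymidine, was at 10.7, 12 and 12.4 CPM in KO and 22.4, 21 and 22.8 CPM in WT at 24 h, with no overlap and a difference of -0.91 (SE 0.14, adjusted p = 3.47e-05). At 36 h it was at 25.8, 20.4 and 23.8 CPM in KO and 27.4, 21.8 and 21.2 CPM in WT, overlapping. TYMS, thymidylate synthase, was at 174, 221 and 213 CPM in KO and 133, 99.4 and 155 CPM in WT at 12 h, a difference of 0.65 (SE 0.22, adjusted p = 0.0449), a call lost in 4 of 6 fits with 1 library left out, adjusted p up to 0.242. Its WT libraries at 0 h were widely spread, at 417, 608 and 712 CPM, beside 679, 647 and 810.5 CPM in KO. ENOSF1 on the opposite strand overlaps 39.1% of the exon length of TYMS.

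The 3 chromatin copying genes were called lower at each later time in both genotypes. UHRF1, which carries DNA methylation through replication, was at 208, 188 and 207 CPM in KO and 198, 189 and 226 CPM in WT at 0 h and at 67.6, 73.1 and 65.1 CPM in KO and 61.6, 69.3 and 69.1 CPM in WT at 6 h. In WT this was the largest fall of the 41 at 6 h, with a log2 change of -1.62 (SE 0.13, adjusted p = 9.92e-12). At 12 h KO was below WT without overlap, at 36, 31.4 and 39.2 CPM against 53.2, 52.6 and 61.2 CPM. CHAF1A and CHAF1B, the chromatin assembly factor that places histones on new DNA, had log2 changes of -2.27 and -1.96 in KO and -1.89 and -1.82 in WT at 24 h.

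Of the E2F factors, the activators E2F1 and E2F2 averaged 18.2 ± 3.3 and 45.9 ± 4.38 CPM in KO and 16.5 ± 4.55 and 36.3 ± 2.89 CPM in WT at 0 h. At 24 h they averaged 3.06 ± 0.859 and 3.31 ± 0.422 CPM in KO and 3.93 ± 1.11 and 5.76 ± 0.899 CPM in WT. E2F2 had the largest fall of the 41 in KO at 6 h, with a log2 change of -2.07 (SE 0.20, adjusted p = 3.82e-10). E2F8, an atypical member that represses E2F targets, was at 4.49, 3.5 and 5.43 CPM in KO and 7.6, 6.47 and 7.94 CPM in WT at 24 h, all KO libraries the lower ones, with a difference of -0.71 (SE 0.20, adjusted p = 0.0177), a call lost in 4 of 6 fits with 1 library left out, adjusted p up to 0.115. Activators and repressor thus moved in the same direction.

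Promoter sequence was not itself used to choose the genes. Since most replication genes are known to be transcribed by E2F factors, a high share of E2F sites is not independent of the choice. RefSeq windows from 250 bases before to 50 after a listed start (GRCh38.p14, not the build named by the submitters) were found for 35 of the 41 genes. For genes with several windows, 7 of them members, only the first listed was used. They were searched on both strands for the E2F site spellings TTTGGCGC, TTTCCCGC, TTTCGCGC and TTTGCCGC. At least 1 spelling stood in 20 of the 35 windows (57.1%), against 4.87% of the 11600 windows of tested genes and 3.33% of all 27305. The related word GGCGGGAA, which can overlap TTTCCCGC read on the other strand, stood in 31.4% of the members' windows and 4.63% of those of tested genes. The CCAAT box stood in 57.1% and 36%. Windows are shown for 3 genes with such words and for RRM2 and RFC5, one of the deepest falls and the exception, which have none. Capitals mark the E2F spellings and GGCGGGAA, on either strand, and each window reads 5′ to 3′ along its gene.
GINS2, chr16:85688905-85689204, minus strand: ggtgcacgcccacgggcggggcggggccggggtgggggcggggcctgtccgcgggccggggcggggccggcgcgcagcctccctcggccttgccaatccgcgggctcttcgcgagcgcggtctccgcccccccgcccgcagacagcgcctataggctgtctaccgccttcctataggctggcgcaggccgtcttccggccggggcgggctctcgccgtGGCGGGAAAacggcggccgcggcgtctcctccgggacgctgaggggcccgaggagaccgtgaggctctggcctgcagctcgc
CDC6, chr17:40287629-40287928, plus strand: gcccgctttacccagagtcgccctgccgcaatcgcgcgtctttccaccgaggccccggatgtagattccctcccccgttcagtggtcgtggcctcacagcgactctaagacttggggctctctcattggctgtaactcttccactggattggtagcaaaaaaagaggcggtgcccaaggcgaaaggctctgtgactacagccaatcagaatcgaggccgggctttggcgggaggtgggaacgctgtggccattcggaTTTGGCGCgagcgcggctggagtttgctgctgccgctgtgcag
MCM7, chr7:100101348-100101647, minus strand: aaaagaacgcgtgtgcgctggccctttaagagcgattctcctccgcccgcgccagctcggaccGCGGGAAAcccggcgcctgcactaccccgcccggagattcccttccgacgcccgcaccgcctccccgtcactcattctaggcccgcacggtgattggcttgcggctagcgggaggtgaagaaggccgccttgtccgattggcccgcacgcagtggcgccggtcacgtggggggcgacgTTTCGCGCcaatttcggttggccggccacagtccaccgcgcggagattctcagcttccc
RRM2, chr2:10122489-10122788, plus strand: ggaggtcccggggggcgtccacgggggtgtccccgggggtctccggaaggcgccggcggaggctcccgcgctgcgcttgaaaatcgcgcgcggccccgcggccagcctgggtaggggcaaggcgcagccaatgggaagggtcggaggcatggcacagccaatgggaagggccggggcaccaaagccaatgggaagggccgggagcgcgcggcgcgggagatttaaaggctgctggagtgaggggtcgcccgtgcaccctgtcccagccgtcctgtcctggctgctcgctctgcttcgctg
RFC5, chr12:118016453-118016752, plus strand: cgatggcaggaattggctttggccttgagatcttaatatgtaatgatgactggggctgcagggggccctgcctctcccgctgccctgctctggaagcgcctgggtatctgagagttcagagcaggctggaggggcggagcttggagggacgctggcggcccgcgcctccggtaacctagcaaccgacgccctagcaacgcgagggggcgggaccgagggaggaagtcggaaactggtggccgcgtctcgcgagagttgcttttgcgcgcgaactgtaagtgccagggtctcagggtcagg
The 20 genes with an E2F spelling had a median log2 change at 24 h of -2.09 in KO and -1.91 in WT, and the 15 without one -1.96 in KO and -1.81 in WT. A word in a window is a description of the sequence, and its absence says nothing about binding of a factor.

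KO was compared with WT at each time to ask whether the loss of isoform 1 altered the programme. At 0 h RRM1 alone was called lower in KO, where 3.11% of all tested genes were. At an unadjusted p under 0.05 in edgeR's test 10 of the 41 were lower at 0 h and 0 higher. The sum of the 41 in KO was 92.5% of that in WT at 0 h and 77.2% at 24 h. Differences in level at later times include any that were there at 0 h. At 6 h CDC6, RFC5 and TK1 were called lower in KO, where 4.76% of all tested genes were. At 12 h 9 genes were called lower (MCM4, MCM5, MCM6, CDC45, GINS2, RFC5, RRM1, TK1 and UHRF1) and RRM2 and TYMS higher, against 5.52% and 6.05% of all tested genes. At 24 h 18 genes were called lower and 0 higher, against 4.76% and 4.97% of all tested genes, with a median log2 difference over the 41 of -0.35 and over all tested genes of -0.01. DESeq2 and an unadjusted p under 0.05 also gave 0 higher at 24 h. At 36 h RFC5 was called lower and MCM2, MCM4 and MCM6 higher, against 6.52% and 6.95% of all tested genes, and the median over the 41 was 0.06. Of the 37 calls between genotypes over the 5 times, 12 held with every single library left out. Those that also held under every other alternative were MCM5, CDC45, GINS2, RFC5 and UHRF1 at 12 h and MCM7, CDC45, FEN1, RRM2 and TK1 at 24 h. The count at 24 h was 5 when the 6 libraries of that time were fitted alone, 10 without WT replicate 3 and 22 without KO replicate 3. Over all tested genes these 3 fits called 910, 1935 and 1482 genes, lower or higher.

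**Figure D3:**
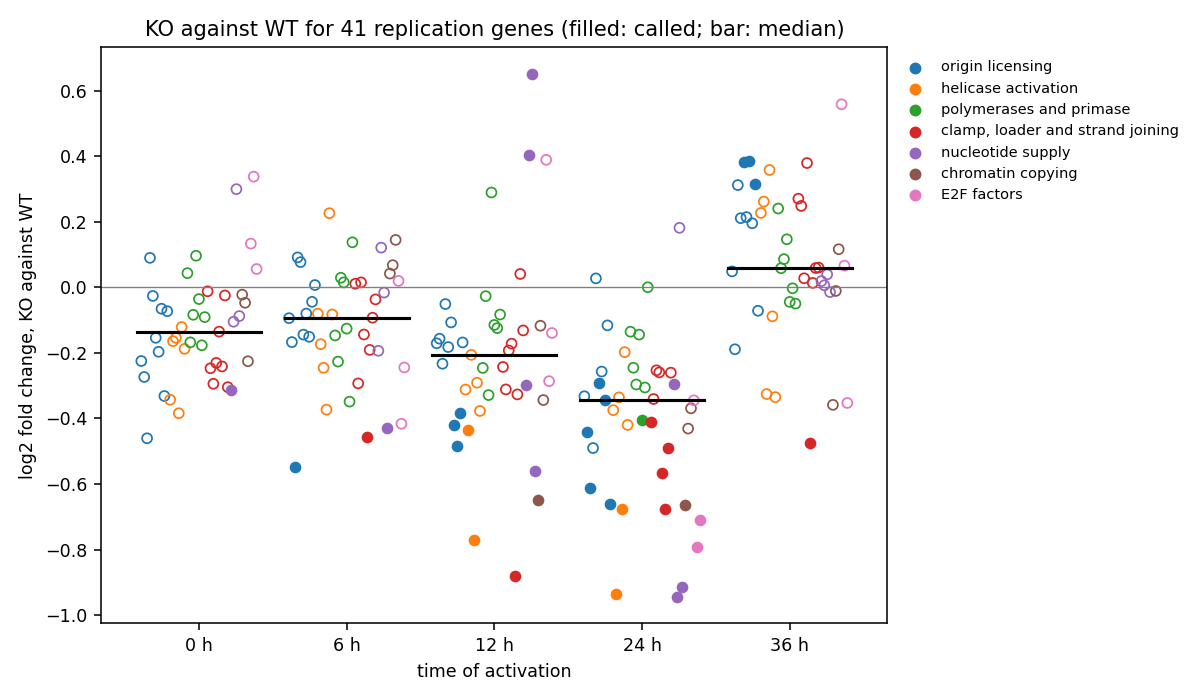
Log2 difference of KO against WT for the 41 genes at each time of activation, coloured by role, with filled points for called differences and a bar at the median. At 24 h all called points lie below 0, and at 36 h the median is 0.06.

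The genes of G2 and mitosis, 25 genes such as TOP2A and BIRC5, were also lower in KO. Their sum was 1241 ± 66.8 CPM in KO and 1683 ± 32.1 CPM in WT at 24 h and 826.2 ± 71.9 CPM in KO and 1203 ± 118 CPM in WT at 36 h, and 17 and 18 of the 25 were called lower in KO at these times. The median log2 difference of the mitosis genes was -0.55 at 36 h, where that of the replication genes was 0.06. CDKN1A, the CDK inhibitor p21, was at 157 ± 31.5 CPM in KO libraries and 47 ± 3.62 CPM in WT libraries at 6 h and at 26.5 ± 6.19 CPM in KO libraries and 7.66 ± 0.391 CPM in WT libraries at 24 h, with a 24 h difference of 1.79 (SE 0.20, adjusted p = 6.43e-08). CCND2, a D cyclin of G1, was at 34 ± 10.5 CPM in KO libraries and 9.69 ± 0.404 CPM in WT libraries at 24 h. Their part in the levels of the replication genes was not tested.

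Up to 24 h most calls from step to step were falls in both genotypes. Between 6 and 12 h 29 genes were called lower in KO and 24 in WT, against 5.76% and 5.64% of all tested genes. Between 12 and 24 h 34 were called lower and MCM6 higher in KO, against 8.2% and 6.28% of all tested genes, and 25 were called lower in WT, against 7.25%. RRM2 had the largest fall of this step in KO, with -2.15 (SE 0.11, adjusted p = 7.49e-16), beside -0.80 (SE 0.11, adjusted p = 1.09e-06) in WT.

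Between 24 and 36 h the called changes in KO were rises. In KO 22 of the 41 genes were called higher and 0 lower, against 4.07% and 3.35% of all tested genes, and 38 had a positive change. With DESeq2 26 were higher and 0 lower, where 2174 of all tested genes were called either way. At an unadjusted p under 0.05 30 were higher and 0 lower. In WT MCM2 and TYMS were called higher and RRM1 lower, against 4.62% and 2.57% of all tested genes. The median log2 change of the 41 was 0.39 in KO and -0.03 in WT, and over all tested genes 0 in KO and -0.02 in WT. The count in KO was 29 without the 4 libraries that stood apart, among them KO 24 h replicate 3. It was from 15 to 23 when 1 of the 6 libraries was left out. Over all tested genes these fits called 2730 and from 803 to 1646 genes, lower or higher. Over the same step and libraries 16 of the 25 mitosis genes were called lower in KO and 15 in WT.

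**Figure D4:**
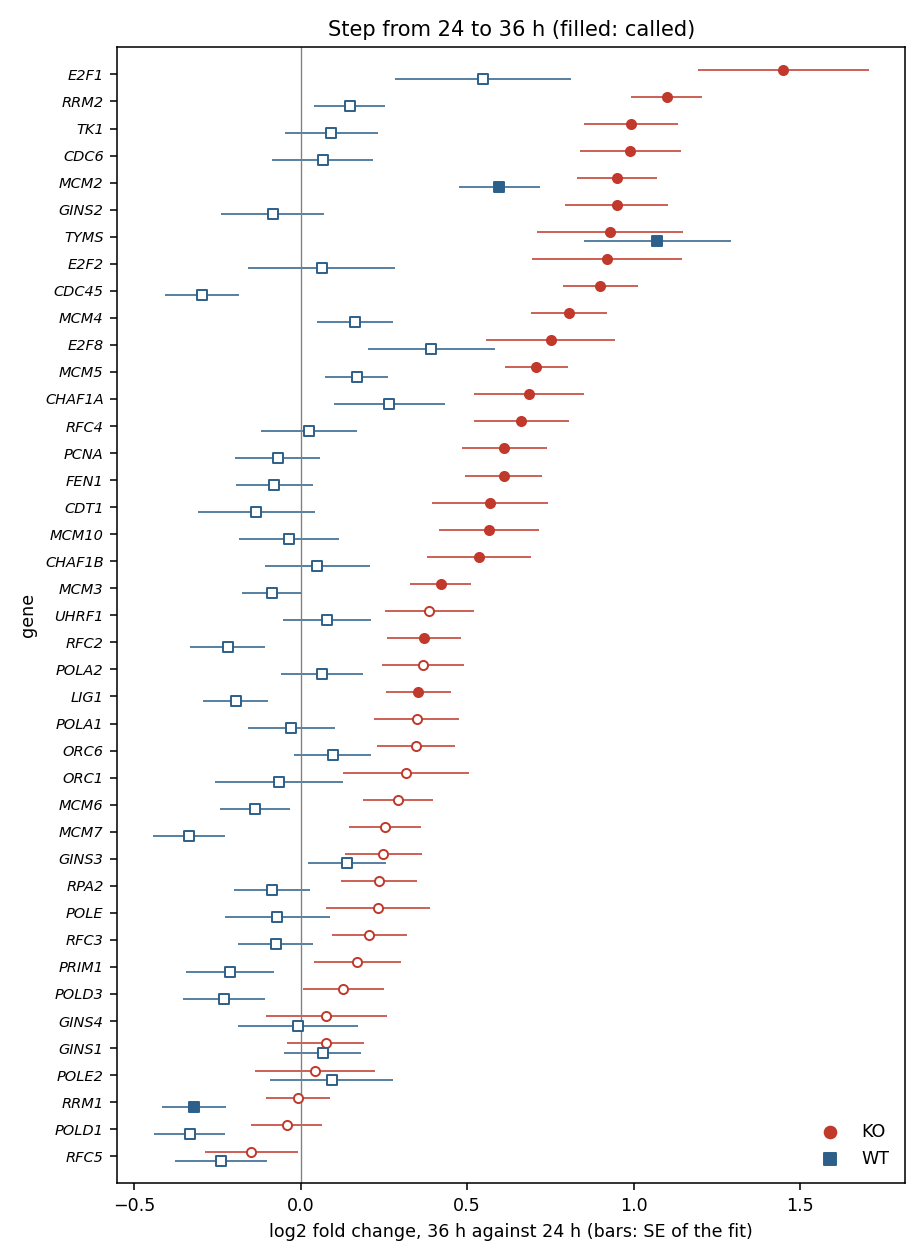
Log2 change of each of the 41 genes between 24 and 36 h in KO (red circles) and WT (blue squares), with bars for the SE of the fit and filled symbols for called changes. In KO 22 genes have filled symbols to the right of 0, and in WT MCM2 and TYMS do.

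The genes called higher in KO spanned the roles. E2F1 had the largest change of this step, at 8.55, 6.84 and 9.83 CPM in KO at 36 h against 2.49, 2.65 and 4.05 CPM at 24 h, a log2 change of 1.45 (SE 0.26, adjusted p = 0.000377), beside 0.55 (SE 0.26, adjusted p = 0.248) in WT. RRM2 had a log2 change of 1.10 (SE 0.11, adjusted p = 3.14e-08) in KO and 0.15 (SE 0.11, adjusted p = 0.506) in WT. The 3 E2F factors were all called higher in KO, as were 6 of the 10 licensing genes, 3 of the 6 helicase activators, 5 of the 8 genes of the clamp group, 3 of the 4 nucleotide supply genes and 2 of the 3 chromatin genes. Of the 7 polymerase and primase genes 0 were called in edgeR's test, with log2 changes between -0.04 and 0.37. Since the letter in the titles changes at this step, it cannot be told apart from time here, in KO or in WT.

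**Figure D5:**
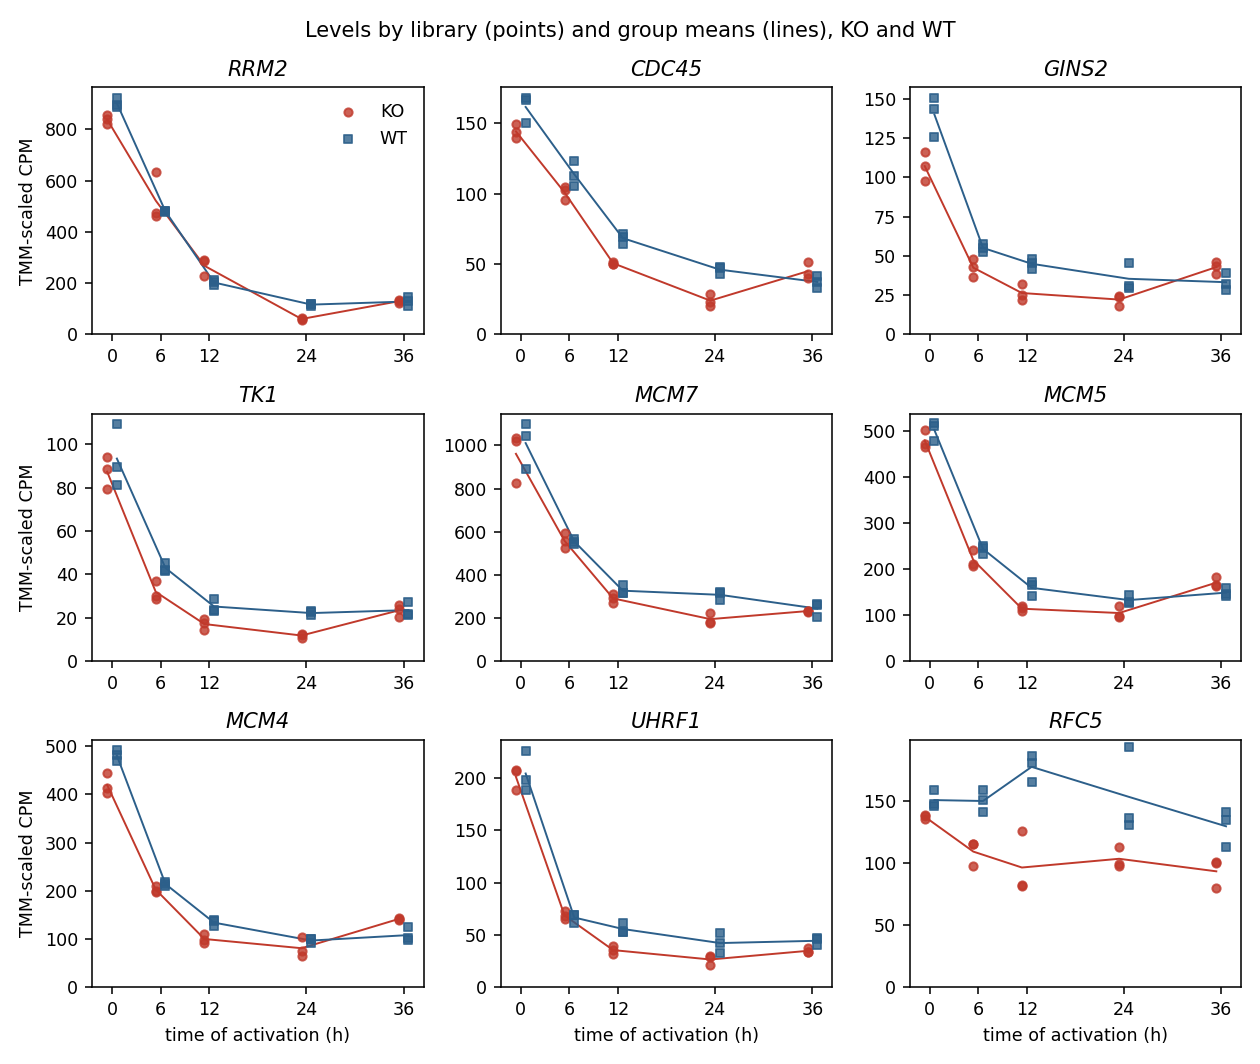
Levels of 9 named genes by library (points, TMM-scaled CPM from 0) with lines through the group means, KO as red circles and WT as blue squares, at 0, 6, 12, 24 and 36 h. RRM2, CDC45, GINS2 and TK1 in KO lie lowest at 24 h and are higher at 36 h, and RFC5 in WT has no called fall.

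Whether the genotypes differed in the change itself was tested as an interaction. For the change from 0 to 6 h 0 of the 41 were called in edgeR's test, against 3.01% of all tested genes, 2 had an unadjusted p under 0.05 and DESeq2 called 0. For the change to 12 h RFC5 was called, with -0.74 (SE 0.20, adjusted p = 0.0362), against 0.65% of all tested genes called lower, and leaving out any 1 of 10 of the 12 libraries or the shallow ones ended the call. For the change to 24 h 7 genes were called, all with a larger fall in KO (MCM7, CDC45, LIG1, RRM2, TK1, UHRF1 and E2F2), against 1.7% of all tested genes. For the change to 36 h 6 genes were called, all with a smaller fall in KO (CDC6, MCM4, MCM6, GINS2, RFC2 and RFC4), against 4.71%. Without the 3 shallow libraries 0 of the 41 were called, and 921 of all tested genes. Of these 14 calls, those of CDC45 and RRM2 at 24 h held under every alternative run. The joint test of the 4 later times called 13 genes, against 9.84% of all tested genes, led by RRM2 (adjusted p = 1.66e-06) and CDC45 (adjusted p = 5.01e-05).

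The genotype difference in the step from 24 to 36 h was tested after the step had been seen. By construction it equals the KO against WT difference at 36 h minus that at 24 h. The same 24 h libraries also enter the calls between genotypes at 24 h, the 24 h interaction and the KO step. These results are therefore not independent of each other. The step difference was called for CDC45, with 1.20 (SE 0.16, adjusted p = 0.000143), for GINS2, with 1.03 (SE 0.22, adjusted p = 0.0406), and for RRM2, with 0.95 (SE 0.15, adjusted p = 0.00229), against 0.0789% of all tested genes called higher. The value was positive for 39 of the 41 genes, with a median of 0.42 beside -0.01 over all tested genes. The calls of CDC45 and RRM2 held with every single library left out, and that of GINS2 was lost in 6 of 12 such fits. The count was 13 with DESeq2 and 13 without KO 24 h replicate 3, where 117 and 112 of the 21554 tested genes were called, lower or higher.

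Other genes of replication, from a list of 39, also fell for the most part. At 24 h 30 were called lower and 1 higher in KO and 34 lower and 2 higher in WT, with medians of -0.94 in KO and -0.92 in WT. CDC7, the kinase that fires origins, had log2 changes of -1.73 in KO and -1.83 in WT, and ASF1B, a histone chaperone, of -2.40 in KO and -1.82 in WT. POLD4, the smallest subunit of polymerase delta, went the other way, at 60.1 ± 3.24 CPM in KO libraries and 60.5 ± 3.73 CPM in WT libraries at 24 h against 34 ± 2.76 CPM and 30.1 ± 2.03 CPM at 0 h. Between 24 and 36 h 12 of the 39 were called higher and 0 lower in KO, and 4 higher and 1 lower in WT.

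Of 21 further nucleotide genes 19 were tested, and at 24 h 10 were called lower and 3 higher in KO and 15 lower and 2 higher in WT. DUT, which keeps uracil out of DNA, had log2 changes of -2.51 in KO and -2.28 in WT. It rose in KO between 24 and 36 h, with a log2 change of 1.18 (SE 0.11, adjusted p = 1.05e-08), beside 0.24 (SE 0.11, adjusted p = 0.213) in WT. RRM2B, the reductase subunit used outside S phase, rose at 24 h by 0.89 (SE 0.21, adjusted p = 0.00107) in KO and 0.82 (SE 0.21, adjusted p = 0.00253) in WT, where RRM2 fell. SHMT2, the mitochondrial enzyme of one-carbon supply, rose by 0.70 in KO and 0.62 in WT, and its cytosolic partner SHMT1 had log2 changes of -1.12 in KO and -1.15 in WT.

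In the E2F and RB network, 27 genes, 18 were called lower and 2 higher in KO at 24 h and 14 lower and 4 higher in WT. CCNA2, the cyclin of S phase and G2, had log2 changes of -2.88 in KO and -2.34 in WT and E2F7, a further repressor, of -3.13 in KO and -2.84 in WT. TFDP1, the partner that E2F factors bind DNA with, changed by 0.89 (SE 0.13, adjusted p = 2.4e-05) between 24 and 36 h in KO and by 0.07 (SE 0.13, adjusted p = 0.842) in WT. CCNA2 was not called in that step, with -0.26 (SE 0.11, adjusted p = 0.187) in KO and -0.34 (SE 0.11, adjusted p = 0.0585) in WT. These lists were drawn up with earlier results of these data known, and their counts describe them beside the shares of all tested genes given above.

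Exons of 19 of the 41 genes overlap those of another gene in GENCODE 29, 14 of them on the opposite strand. Without knowing whether strand was used in counting, reads of such partners cannot be told apart. The 41 genes lie on 19 chromosomes.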

How the data were processed

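The authors deposited estimated counts per gene in 1 file for each library, made with cutadapt, STAR and DESeq2 on GRCh37 (hg19), per the submitters' processing notes. No version, counting program or annotation is named there or elsewhere in the sources used. Of the deposited count values 0.177% were not whole, in 195 symbols and no member, and all were rounded. Libraries were grouped by their titles. The members and gene lists were chosen with earlier results of these data known.

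Genes were kept by filterByExpr at a minimum count of 10 (21554 genes), scaled by TMM and tested over all 30 libraries in 1 fit with edgeR 4.0.16 (quasi-likelihood F test, limma 3.58.1, R 4.3.3), adjusted by Benjamini-Hochberg over all tested genes and called under 0.05. The test was also run on simulated counts with known changes, which held neither outlying libraries nor technical replication. Alternatives were DESeq2 1.42.0, its size factors, no filter, the compared libraries alone, a replicate block, each library left out and, chosen after seeing the data, sets of shallow or outlying libraries left out. Values by library are given for the gene of each role with the highest mean level over all libraries, for up to 4 genes with the smallest joint p and for up to 3 called genes with the smallest p in KO against WT at each time. Those of TYMS and E2F1 were added after they were seen. Of other lists, up to 4 called genes of smallest p in WT at 24 h and up to 3 called the opposite way are named. Some genes that this rule names are not reported here. Title numbers are shared by KO and WT up to 24 h and were not used as pairs in the main fit. Counts cover totals of 5.64 to 28.2 M, and low levels are limited by counting error.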

Additional observations from a re-analysis of the deposited data

Results flagged for a closer look

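Genes are given here where the KO change minus the WT change, or the joint test over the 4 later times, passed the threshold of edgeR's quasi-likelihood test with Benjamini-Hochberg adjustment. For the change to 12 h this was RFC5 (-0.74 on the log2 scale). For the change to 24 h the values were -0.59 for MCM7, -0.77 for CDC45, -0.47 for LIG1, -0.84 for RRM2, -0.83 for TK1, -0.64 for UHRF1 and -1.13 for E2F2, all a larger fall in KO. For the change to 36 h they were 0.77 for CDC6, 0.58 for MCM4, 0.65 for MCM6, 0.74 for GINS2, 0.50 for RFC2 and 0.61 for RFC4, all a smaller fall in KO. For the step from 24 to 36 h they were 1.20 for CDC45, 1.03 for GINS2 and 0.95 for RRM2.

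The joint test gave adjusted p = 1.66e-06 for RRM2, 5.01e-05 for CDC45, 0.00311 for GINS2, 0.00532 for MCM5, 0.00719 for MCM4 and 0.00802 for MCM6 by edgeR. It gave adjusted p = 0.00873 for TK1, 0.0109 for UHRF1, 0.0139 for CDC6, 0.0147 for MCM7, 0.0273 for LIG1, 0.0403 for RFC2 and 0.0442 for FEN1. The title letter goes with genotype up to 24 h and changes at 36 h, and its part in these values cannot be told apart from genotype and time.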

How the results depend on the processing

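The counts of genes called lower against 0 h stayed within 1.5 times of those reported under every alternative run. No called value of a single gene changed direction under them. Counts below are of the 41 genes. With DESeq2's size factors in edgeR, 5 (1600) were called in the WT step from 24 to 36 h. In KO against WT at 0 h 3 (1336) were called and in the interaction at 12 h 2 (442). With DESeq2 these were 6 (2109), 6 (1738) and 4 (710), with 10 (2598) in the interaction at 36 h and 13 (117) in that of the step. Without a filter on low counts the step interaction gave 8 (168, here of 50747 genes). With the 6 compared libraries fitted alone, KO against WT gave 6 (1570) at 0 h and 5 (910) at 24 h.

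Of 12 pairs of a KO and a WT library with the same title number, 1 had a correlation of deviations above 0.1 (-0.015 to 0.126). It was replicate 3 of KO and WT at 24 h, both among the libraries that stood apart. The shallow libraries at 0 h, replicate 2 of KO and of WT, also share a title number. Pairs with unlike numbers were not compared, so whether the numbers mark shared handling cannot be told. With a replicate block, KO against WT at 0 h gave 6 (1651) and the interaction at 12 h gave 2 (600).

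Without the 3 shallow libraries KO against WT gave 0 (632) at 0 h and 2 (2187) at 36 h. The interactions gave 0 (293) at 12 h, 4 (427) at 24 h and 0 (921) at 36 h, and the joint test 8 (1386). Without the 4 libraries that stood apart KO against WT gave 7 (2293) at 0 h, 8 (2882) at 6 h and 9 (3956) at 36 h. The interactions gave 1 (1352) at 6 h, 3 (1015) at 12 h and 11 (3271) at 36 h. The step interaction gave 12 (167) and the joint test 23 (4008). With 1 library left out, KO against WT gave 0 to 0 (665 to 1186) at 0 h and 0 to 3 (1419 to 2021) at 6 h. It gave 6 to 10 (1375 to 2043) at 12 h, 10 to 22 (1482 to 1935) at 24 h and 0 to 5 (2098 to 2386) at 36 h. The interactions gave 0 to 2 (308 to 567) at 12 h and 2 to 7 (477 to 1141) at 24 h. They gave 2 to 9 (1357 to 1939) at 36 h and 2 to 13 (11 to 112) for the step. Of single calls, 12 of 315 against 0 h, 40 of 138 between later times, 25 of 37 between genotypes and 10 of 14 interactions were lost in at least 1 such fit. Apart from the fewer libraries in these fits, the cause was not tested.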
